A study of Mus musculus with 6 samples.

Results

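The angiogenic factors and receptors examined here are 10 genes, chosen by name: the VEGF family ligands Vegfa, Vegfb, Vegfc, Vegfd and Pgf, the VEGF receptors Flt1 and Kdr, the angiopoietin ligand Angpt1 and its receptor Tek, and Esm1. They are 10 of the 41126 genes in the all-gene RNA-seq table, and all 10 had enough fragments to be tested. RNA was taken from 6 cultures of dermal fibroblasts, 3 controls and 3 gain-of-function (GOF) cultures, from ventral skin of mice of mixed CD1 and C57Bl6 background at postnatal day 4 by the labels. GOF cells carry the Ctnnb1 Δex3/+ allele and received an adenovirus with Cre, which removes an exon of the β-catenin gene so that the protein is no longer marked for degradation. Control cells received an adenovirus with GFP. By the study's methods they carry the same unrecombined transgene, whereas the labels give them as +/+. The virus differs between the groups together with β-catenin, so their parts in any difference cannot be told apart, and the labels' treatment text names the Cre virus for every culture. It gives an infection of 6 h at a multiplicity of infection of 366 to 500, also for every culture. The cultures came from 4 animals by their labels. Control replicate 0 and GOF replicate 2 share an animal, as do control replicate 2 and GOF replicate 0, so 2 animals are in both groups. An animal has a single genotype. For control replicates 0 and 2, the labels' +/+ therefore conflicts with Δex3/+ in the GOF cells of the same animals. For the remaining control the sources leave the genotype open.

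Blood and lymphatic vessels grow when endothelial cells receive ligands made by the tissue around them. VEGF family ligands act through receptor tyrosine kinases: VEGFA binds FLT1 and KDR, VEGFB and PGF bind FLT1, and VEGFC and VEGFD act mainly through FLT4 on lymphatic vessels. Angiopoietins act through TEK, also called TIE2, which steadies vessels once they have formed. In skin, fibroblasts are among the sources of these ligands, and the receptors are best known from endothelium.

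Libraries held 35980831 to 42834467 fragments. Values are given as FPKM, fragments scaled to transcript length and library size, which the authors deposited and which allows levels of different genes to be compared. Differences were tested with edgeR on the deposited fragments, and a gene was called when its adjusted p was under 0.05 and its fold change over 2. Gene positions are those of GENCODE M21 on GRCm38. Ctnnb1 was at 267 ± 16.3 FPKM in control and 263 ± 28.8 FPKM in GOF libraries (SD, n = 3 each) over the whole gene, while Axin2, a feedback target of Wnt signaling, went from 0.152 ± 0.0218 to 17.5 ± 2.66 FPKM (SD, n = 3 each), which is a log2 fold change of 6.98 (SE 0.26, adjusted p = 4.95e-05, edgeR). Markers of the labelled cell type were abundant: the summed FPKM of 8 fibroblast genes was 2366 to 3117 in control and 1062 to 1910 in GOF libraries, with Dcn and Col1a2 called lower and none of the 8 called higher by edgeR or by DESeq2, 1 being higher at an unadjusted p under 0.05. Most of the fall of the sum lay in Dcn (mean 1058 to 330 FPKM) and Col1a2 (867 to 387 FPKM). Pdgfra and Lum also had lower means in GOF libraries, Dpt, Thy1 and Twist2 had higher means, and Col1a1 hardly differed. In bulk RNA, fewer cells of a type and less RNA per cell cannot be told apart.

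In GOF fibroblasts the RNA of 3 of the 10 genes rose and that of 3 fell. Pgf, Kdr and Esm1 were called higher, and Vegfd, Flt1 and Tek were called lower (edgeR). Among all 15462 genes tested, 12.3% were called in either direction, 6.69% higher and 5.64% lower. The other 4 genes, Vegfa, Vegfb, Vegfc and Angpt1, were not called, although Vegfc had an adjusted p under 0.05, as did 7 of the 10 genes and 21.2% of all genes tested. In 7 of the 10 genes the FPKM of the 2 groups had no overlap, against 39.5% of all genes tested. Each kind of molecule, ligand and receptor, held genes that rose and genes that fell.

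**Figure D1:**
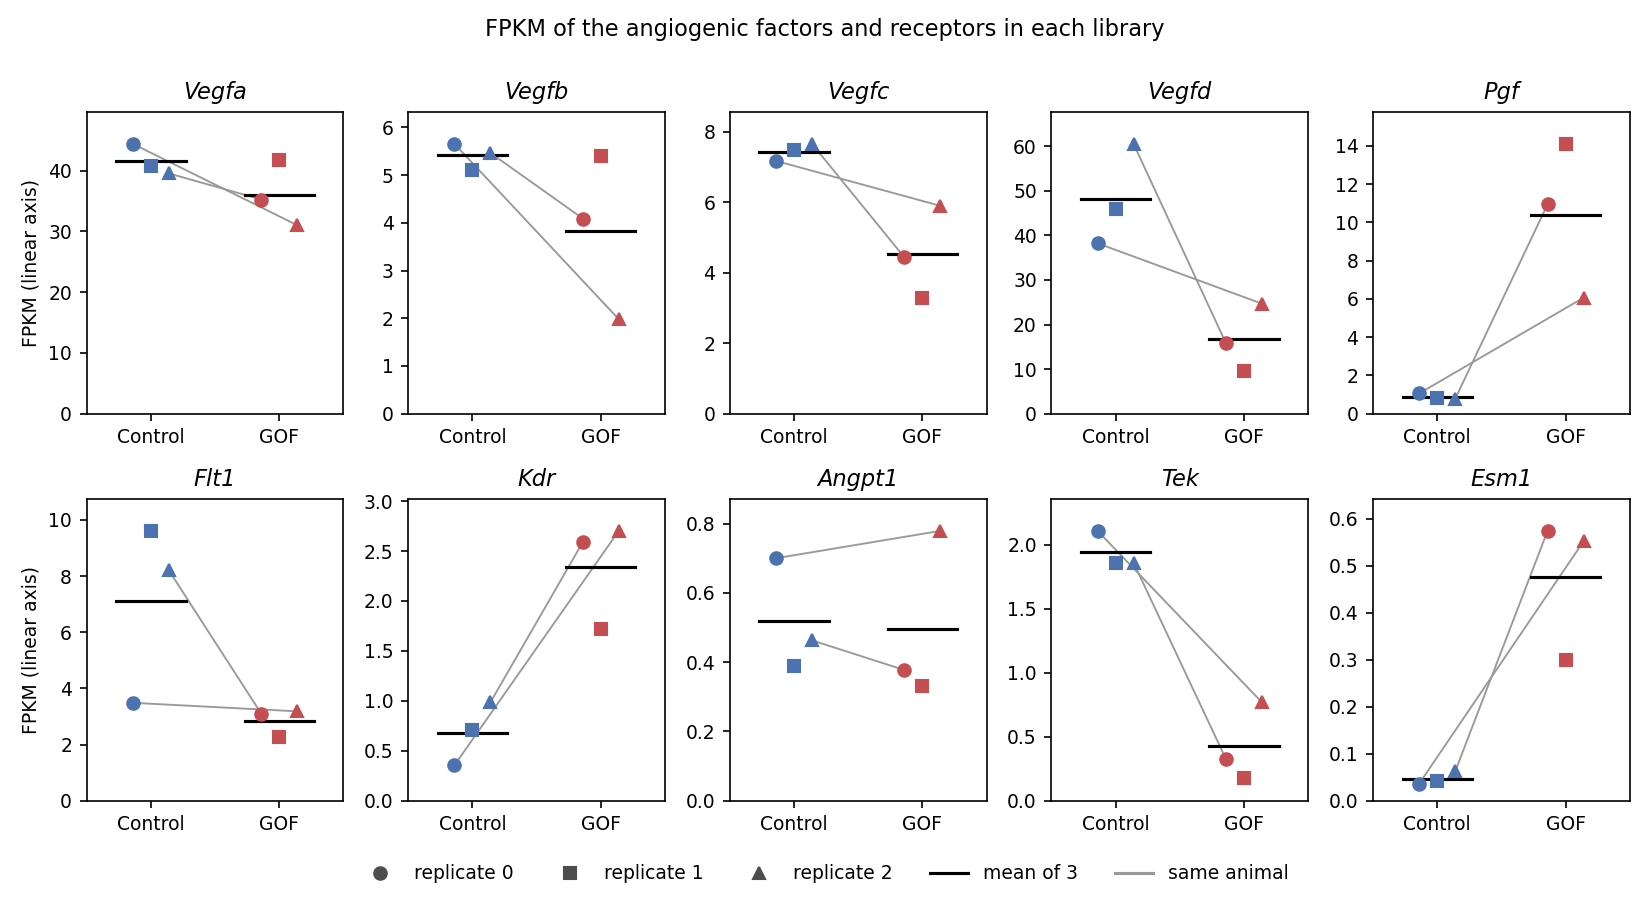
FPKM (linear vertical axis) of the 10 angiogenic genes in the 3 control (blue) and 3 GOF (red) libraries, with the mean of 3 as a black bar and grey lines joining cultures of the same animal. Pgf, Kdr and Esm1 lie higher in all 3 GOF libraries than in the 3 controls, Vegfc, Vegfd, Flt1 and Tek lie lower, and the groups overlap for Vegfa, Vegfb and Angpt1.

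The bases before the transcription start sites are shown for Pgf, Kdr and Esm1, which were called higher, and for Tek, which had the largest fitted fall of the 10 genes. They are RefSeq reference sequence (GRCm38.p6, the assembly called mm10), 250 bases each, 5′ to 3′ on the strand of the gene. The stretches are chr12:85177314-85177563 (minus strand, GC content 68.4%) for Pgf, chr5:75978456-75978705 (minus strand, 61.6%) for Kdr, chr4:94739039-94739288 (plus strand, 51.2%) for Tek and chr13:113209409-113209658 (plus strand, 44.0%) for Esm1, where the median over all such stretches is 52.4%. The Pgf stretch is the first of its windows, and it precedes a RefSeq start that lies inside the gene as GENCODE places it. Capitals mark CTTTG, the core of the motif bound by the TCF and LEF partners of β-catenin, or CAAAG, the same core on the opposite strand.
Pgf: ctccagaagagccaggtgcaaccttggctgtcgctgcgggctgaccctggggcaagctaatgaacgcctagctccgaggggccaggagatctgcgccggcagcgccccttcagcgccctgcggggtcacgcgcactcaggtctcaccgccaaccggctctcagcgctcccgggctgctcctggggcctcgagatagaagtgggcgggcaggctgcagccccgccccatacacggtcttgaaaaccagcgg
Kdr: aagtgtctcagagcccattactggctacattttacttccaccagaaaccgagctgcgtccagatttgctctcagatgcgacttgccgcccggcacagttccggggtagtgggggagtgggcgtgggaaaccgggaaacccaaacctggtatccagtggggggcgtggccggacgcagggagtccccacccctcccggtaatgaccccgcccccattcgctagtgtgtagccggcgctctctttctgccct
Tek: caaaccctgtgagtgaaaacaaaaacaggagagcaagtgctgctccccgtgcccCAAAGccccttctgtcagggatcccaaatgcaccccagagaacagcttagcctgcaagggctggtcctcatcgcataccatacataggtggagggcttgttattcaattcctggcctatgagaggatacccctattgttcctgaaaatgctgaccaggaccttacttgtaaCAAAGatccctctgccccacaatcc
Esm1: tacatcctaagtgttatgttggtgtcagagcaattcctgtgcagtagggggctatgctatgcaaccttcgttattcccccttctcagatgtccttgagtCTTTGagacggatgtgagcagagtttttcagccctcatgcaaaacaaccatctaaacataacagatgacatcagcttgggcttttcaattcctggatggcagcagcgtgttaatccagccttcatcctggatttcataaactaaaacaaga

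Promoter windows of 250 bases before and 50 bases after the start were found for 9 of the 10 genes, 11 windows in all, and were searched on both strands. The full TCF/LEF motifs CTTTGAT and CTTTGAA, which 3.73% and 5.14% of all 32851 windows hold, had no match in the 11 windows, nor had CTTTGTA (3.63% of all windows). CTTTGTT, held by 5.85% of all windows, matched once, in the Tek window on the strand opposite to the gene, with its first base 27 bases before the start. It overlaps the nearer of the 2 CTTTG cores of Tek. The core CTTTG alone, which lies within all 4 longer motifs, is held by 53.9% of all windows and was found in 4 of the 11: those of Tek, Vegfc and Esm1 and the second of the windows of Vegfa. ACGTG, the core bound by hypoxia-inducible factors, was found only in the second Vegfa window, against 19.6% of all windows. That window belongs to a RefSeq start inside the gene, and the first Vegfa window held neither CTTTG nor ACGTG. In Kdr and in both windows of Pgf none of these motifs was found. These are matches of letters in short windows, and binding was not measured.

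Among the VEGF ligands, Pgf rose. Placental growth factor, which Pgf encodes (chromosome 12, 85166635 to 85177790, minus strand), binds FLT1 and is little expressed in most adult tissue. Its FPKM was 1.06, 0.844 and 0.773 in control replicates 0, 1 and 2, and 10.95, 14.1 and 6.07 in GOF replicates 0, 1 and 2. Every GOF library was above every control library, and GOF replicate 2 was the lowest of the 3. The controls held 72, 72 and 60 fragments and the GOF libraries 866, 1042 and 486. The mean went from 0.892 ± 0.149 to 10.4 ± 4.06 FPKM (SD, n = 3 each), 11.6 times as high, with a log2 fold change of 3.50 (SE 0.33, adjusted p = 6.84e-04, edgeR). By p-value it ranked 185 among the 15462 genes. Pgf stayed called in every alternative tried, with log2 fold changes from 2.52 to 3.77. Within the animals that gave both cultures it was 14.2 and 5.72 times as high in the GOF culture.

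Vegfd fell. Its product (chromosome X, 164373378 to 164402650, plus strand) is a growth factor for lymphatic vessels, and it had the highest mean of the 10 genes in control fibroblasts. The control libraries had 38.2, 45.8 and 60.5 FPKM and the GOF libraries 15.8, 9.57 and 24.7 FPKM, in order of replicate. No GOF library reached the lowest control, and GOF replicate 2 again lay nearest to the controls. The mean was 48.2 ± 11.3 FPKM in control and 16.7 ± 7.59 FPKM in GOF libraries (SD, n = 3 each), which is a log2 fold change of -1.54 (SE 0.31, adjusted p = 0.0131, edgeR). Without GOF replicate 0 the change was -1.51 and its adjusted p 0.0621 (edgeR), so that it was no longer called. Over all alternatives the adjusted p ran from 2.36e-05 to 0.0621. In the GOF cultures of the 2 shared animals Vegfd was 3.84- and 1.55-fold lower than in the control cultures.

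Vegfc, the closest relative of Vegfd and the main ligand for lymphatic growth, lies on chromosome 8 from 54077606 to 54187096, plus strand. Its FPKM was 7.17, 7.47 and 7.65 in control and 4.43, 3.29 and 5.89 in GOF libraries. The groups did not overlap, but the difference was smaller than for Vegfd. From 7.43 ± 0.243 to 4.54 ± 1.30 FPKM (SD, n = 3 each), the log2 fold change was -0.74 (SE 0.19, adjusted p = 0.0333, edgeR), a fold of 1.67, which is under the threshold of 2. Its adjusted p was 0.0712 to 0.111 when control replicate 1, control replicate 2, GOF replicate 0 or GOF replicate 1 was left out, and 0.0916 with the animal as a replicate block (edgeR).

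Vegfa, the main driver of blood vessel growth (chromosome 17, 46016993 to 46032369, minus strand), was abundant in both groups. Its FPKM was 44.4, 40.8 and 39.6 in control and 35.3, 41.8 and 31.0 in GOF libraries, and GOF replicate 1 lay within the control range. The means of 41.6 ± 2.52 and 36.0 ± 5.40 FPKM (SD, n = 3 each) differed by -0.20 on the log2 scale (SE 0.13, adjusted p = 0.336, edgeR). Over all alternatives the difference stayed between -0.30 and -0.13, with adjusted p from 0.192 to 0.584. Vegfb, a ligand of FLT1 linked to the supply of fatty acids to tissue (chromosome 19, 6982473 to 6987651, minus strand), was at 5.65, 5.12 and 5.46 FPKM in control and 4.09, 5.39 and 1.98 FPKM in GOF libraries. The groups overlapped through GOF replicate 1, and GOF replicate 2 was far below the rest with 76 fragments. The log2 difference of Vegfb was -0.58 (SE 0.31, adjusted p = 0.237, edgeR), and it was -0.28 without GOF replicate 2.

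The make-up of the 5 VEGF ligands therefore differed between groups, described here after the single values had been seen and without a test. Their summed FPKM was 96.5, 100.1 and 114.0 in control and 70.5, 74.1 and 69.7 in GOF libraries. Vegfd made up 39.6%, 45.8% and 53.1% of the sum in control and 22.4%, 12.9% and 35.4% in GOF libraries. Pgf made up 0.678% to 1.1% in control and 8.71% to 19.0% in GOF libraries. Vegfa took 34.7% to 46.0% in control and 44.6% to 56.3% in GOF libraries, so these ranges overlapped. In control libraries Vegfd and Vegfa were the highest of the 10 genes and their ranges overlapped. In GOF libraries Vegfa alone was highest, with 31.0 FPKM or more, and Vegfd came next, overlapping with Pgf.

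**Figure D2:**
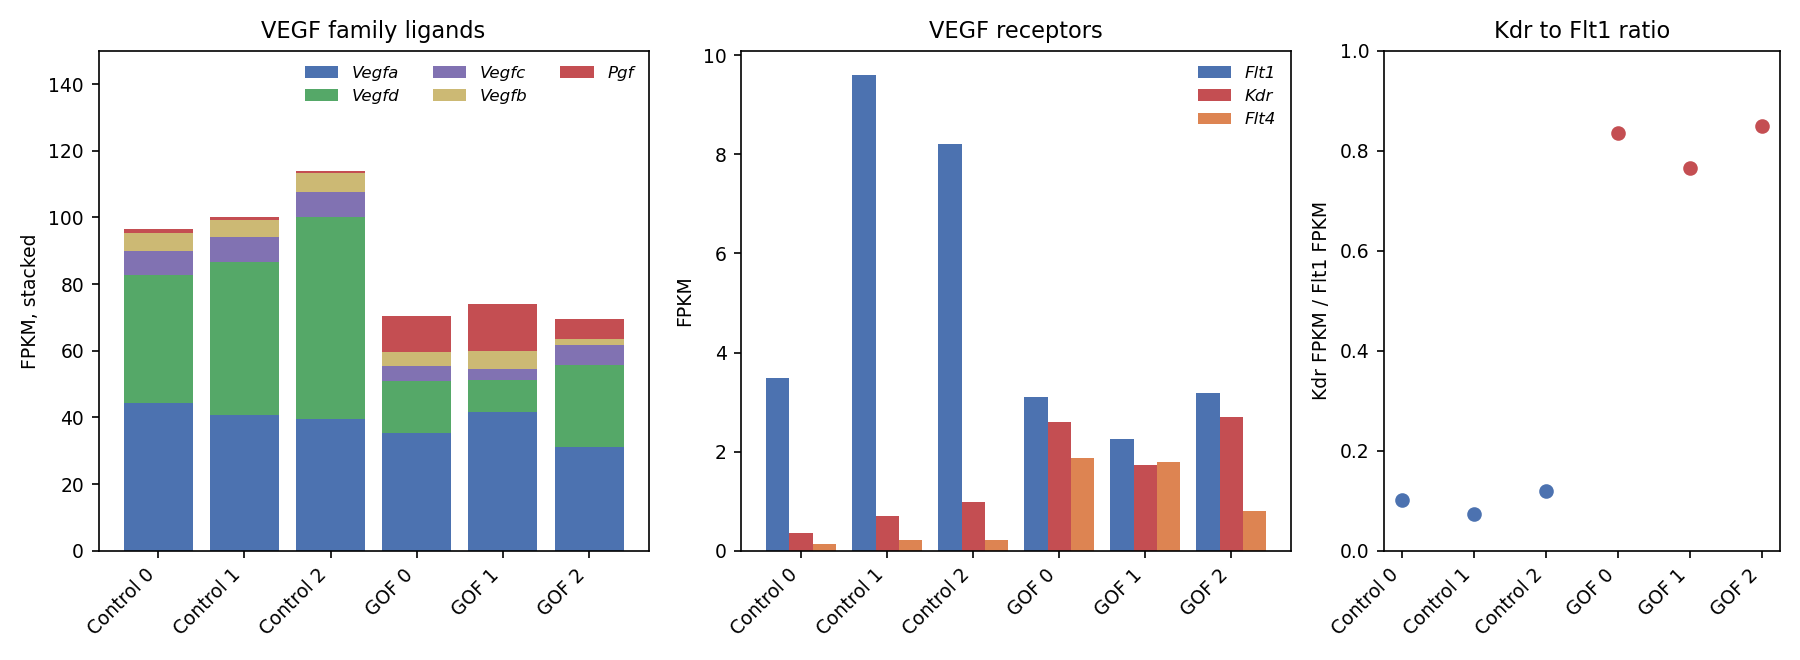
Left, stacked FPKM of the 5 VEGF ligands in each of the 6 libraries. Middle, FPKM of the VEGF receptors Flt1, Kdr and Flt4 in each library. Right, FPKM of Kdr divided by that of Flt1, which is 0.0733 to 0.12 in control and 0.765 to 0.849 in GOF libraries. All axes are linear and start at 0, and each bar or point is a single library.

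Of the VEGF receptors, Kdr rose and Flt1 fell. Kdr, the receptor that carries most VEGFA signaling in endothelium (chromosome 5, 75932827 to 75978458, minus strand), was at 0.355, 0.704 and 0.984 FPKM in control and at 2.59, 1.72 and 2.70 FPKM in GOF libraries. The lowest GOF library, replicate 1, was above the highest control. The fragments behind these values were 90, 209 and 284 in control and 757, 493 and 764 in GOF libraries. From 0.681 ± 0.316 to 2.34 ± 0.535 FPKM (SD, n = 3 each), the log2 fold change of Kdr was 1.77 (SE 0.34, adjusted p = 0.0110, edgeR). Leaving out any single library kept it from 1.46 to 2.11, with an adjusted p of at most 0.0483 (edgeR). With limma on log2(FPKM + 1), a scale that understates changes of low genes, it was 0.99 (adjusted p = 0.00988), just under the fold threshold. In the shared animals Kdr was 2.63 and 7.62 times as high in the GOF culture.

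Flt1, a receptor with high affinity for VEGFA and weak kinase activity, which is also made in a soluble form that traps ligand, lies on the same chromosome from 147561604 to 147726011, minus strand. The table gives 1 value per gene, so the soluble and membrane forms are not separated. Its FPKM was 3.49, 9.61 and 8.20 in control and 3.10, 2.25 and 3.18 in GOF libraries. Control replicate 0 was far below the other controls and only just above the GOF libraries. Its unscaled fragments, 889, equalled those of GOF replicate 2 and were fewer than the 994 of GOF replicate 0. The mean was 7.10 ± 3.21 FPKM in control and 2.85 ± 0.514 FPKM in GOF libraries (SD, n = 3 each), which is a log2 fold change of -1.38 (SE 0.37, adjusted p = 0.0350, edgeR).

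Flt1 lost its call in more of the alternatives than the other 5 called genes. Without control replicate 0 its log2 fold change was -1.72 (adjusted p = 0.00186, edgeR). It was not called without control replicate 1 (-1.07, adjusted p = 0.106), control replicate 2 (-1.28, adjusted p = 0.0894), GOF replicate 0 (-1.49, adjusted p = 0.0917), GOF replicate 1 (-1.25, adjusted p = 0.114) or GOF replicate 2 (-1.40, adjusted p = 0.0756), all by edgeR. With the animal as a replicate block it was -0.80 (adjusted p = 0.0736, edgeR). In the animal of control replicate 2 Flt1 was 2.65-fold lower in the GOF culture, and in that of control replicate 0 it was 1.1-fold lower. The call was also lost with limma on log2(FPKM + 1), where the change was -0.99 (adjusted p = 0.0675). The smaller pseudocount of 0.1 gave -1.18 and no call either (adjusted p = 0.0576, limma).

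Within each group the ratio of the 2 receptors varied less than either level. The ratio of Kdr to Flt1 FPKM was 0.102, 0.0733 and 0.12 in control and 0.836, 0.765 and 0.849 in GOF libraries, a description chosen after the values had been seen. Flt1 was thus well above Kdr in every control library, and in the GOF libraries it was only slightly above. Control replicate 0, which had the lowest Flt1 of the controls, also had their lowest Kdr.

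The angiopoietin receptor Tek fell, and its ligand Angpt1 was not called. Tek (chromosome 4, 94739289 to 94874976, plus strand) was at 2.11, 1.86 and 1.86 FPKM in control and at 0.325, 0.180 and 0.769 FPKM in GOF libraries, from 404, 469 and 448 against 80, 30 and 176 fragments. The controls lay close together, whereas the GOF libraries spread over a coefficient of variation of 72.2%, and all 3 were below the controls. The mean went from 1.94 ± 0.143 to 0.425 ± 0.307 FPKM (SD, n = 3 each), which is a log2 fold change of -2.27 (SE 0.51, adjusted p = 0.0190, edgeR). Without GOF replicate 0 the call was lost (-2.15, adjusted p = 0.0855, edgeR), against 3.83e-05 to 0.0492 in its other alternatives. The fitted change was -3.05 without GOF replicate 2, the GOF library with the highest Tek, and -1.07 on the log2(FPKM + 1) scale with limma. Tek was 5.73- and 2.74-fold lower in the GOF cultures of the shared animals. Of the 11 promoter windows, found for 9 of the 10 genes, only that of Tek held 1 of the 4 longer TCF/LEF motifs. Each of these motifs is held by 3.63% to 5.85% of all windows, and 2 of them were added after the data were seen. The share of all windows holding any of the 4 was not computed. A single match in 11 windows is therefore not shown to be unusual.

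Angpt1, the agonist of TEK (chromosome 15, 42424723 to 42676977, minus strand), was low in all libraries, at 0.7003, 0.390 and 0.463 FPKM in control and 0.377, 0.332 and 0.779 FPKM in GOF libraries. The groups overlapped fully, and cultures of the animal shared by control replicate 0 and GOF replicate 2 had the highest value of each group. Its log2 fold change was -0.10 (SE 0.35, adjusted p = 0.864, edgeR), and its sign changed to 0.18, 0.04 and 0.06 without control replicate 0, GOF replicate 0 and GOF replicate 1. An approximate interval of 2 standard errors on either side covers changes of more than 1.5 times in both directions, so the depth and number of cultures do not bound it closely. Gm17473, which overlaps Angpt1 on the opposite strand, had at most 7 fragments in any library.

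Esm1 rose from a very low level. It encodes endocan, a secreted proteoglycan known as a mark of sprouting endothelial tip cells, and lies on chromosome 13 from 113209659 to 113218098, plus strand. The control libraries held 3, 4 and 6 fragments, or 0.0363, 0.0422 and 0.0621 FPKM. The GOF libraries held 55, 29 and 50 fragments, or 0.574, 0.2999 and 0.552 FPKM. All 3 GOF libraries were above the controls but below 1 FPKM, and the control level rests on few fragments. The mean was 0.0468 ± 0.0135 FPKM in control and 0.475 ± 0.152 FPKM in GOF libraries (SD, n = 3 each), 10.1 times as high, with a log2 fold change of 3.28 (SE 0.41, adjusted p = 0.00199, edgeR). On log2(FPKM + 1) the change was 0.49 (adjusted p = 0.00812, limma). Esm1 was 9.25 and 15.2 times as high in the GOF cultures of the shared animals. Gzmk, which overlaps it on the opposite strand, had 2 fragments in control replicate 0 and 0 in the other 5 libraries. Whether the counting used the strand is not stated, so fragments of overlapping genes are not surely apart.

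**Figure D3:**
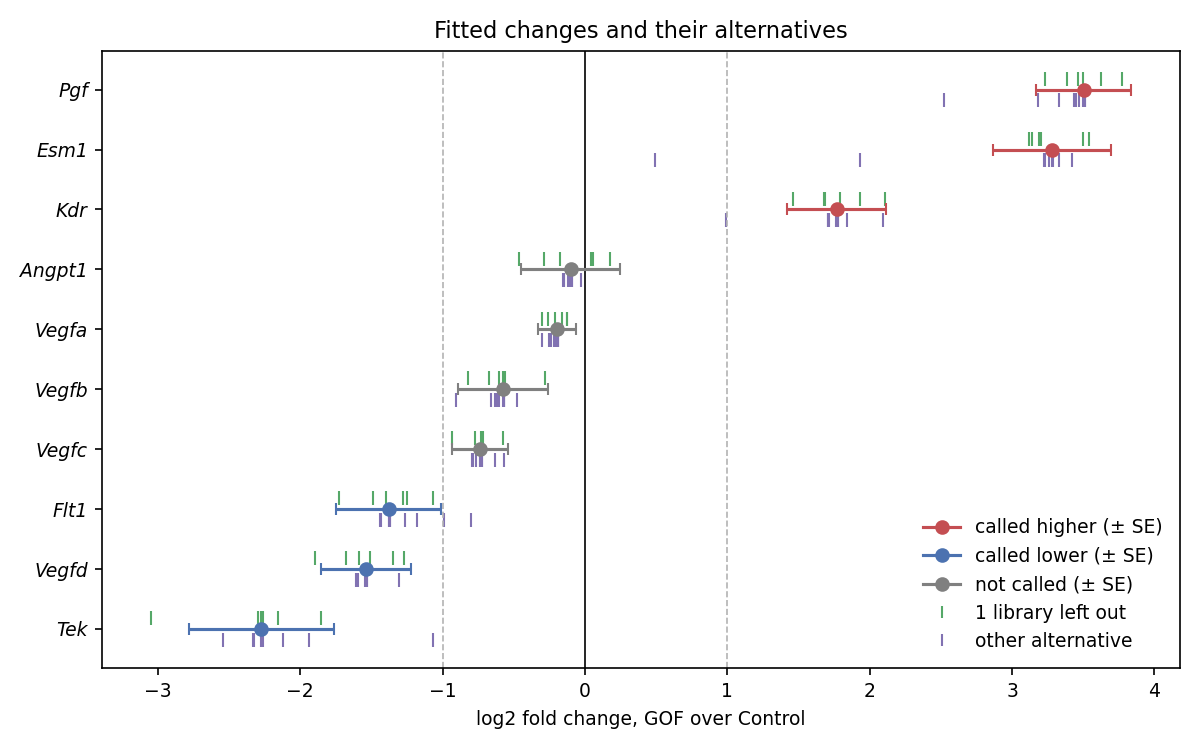
Fitted log2 fold change, GOF over control (linear axis in log2 units), of the 10 genes with standard error, and its value with 1 library left out (green) and in the other alternatives (purple). Dashed lines mark a fold change of 2. The alternatives of Pgf lie between 2.52 and 3.77, those of Flt1 between -1.72 and -0.80, and those of Angpt1 lie on both sides of 0.

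The GOF libraries did not lie in the same order for all genes. GOF replicate 2 was nearest to the controls for Pgf, Vegfc, Vegfd, Flt1 and Tek. GOF replicate 1 was nearest for Kdr and Esm1, and farthest from the controls for Pgf, Vegfc, Vegfd, Flt1 and Tek. It had the lowest Axin2 of the GOF libraries, 14.4 FPKM against 19.2 and 18.7 FPKM, so low Axin2 did not go with a small difference throughout. For all 7 genes whose groups did not overlap, an exact permutation test of the difference in mean FPKM gave a two-sided p = 0.1, below which a comparison of 3 with 3 libraries cannot go. Any gene without overlap must give this value, so the test adds nothing to the lack of overlap. The median log2 fold change over the 10 genes was -0.39, against -0.02 over all genes tested.

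Further genes of these pathways were taken from lists. Of 12 genes of the VEGF and angiopoietin pathway beyond the 10, 11 were tested, 2 were called higher and 2 lower, with a median log2 fold change of -0.24. Flt4, the receptor of VEGFC and VEGFD, rose from 0.137, 0.222 and 0.227 FPKM in control to 1.87, 1.78 and 0.797 FPKM in GOF libraries (log2 fold change 2.89, SE 0.37, adjusted p = 0.00223, edgeR). While its ligands Vegfd and Vegfc were lower in each GOF library, Flt4 was thus higher in each. Ptprb, a phosphatase that removes phosphate from TEK, rose from 0.648 ± 0.111 to 2.20 ± 0.387 FPKM (SD, n = 3 each), and Angpt4, a further TEK ligand, fell from 4.15 to 1.49 FPKM (log2 fold changes 1.75 and -1.53, adjusted p = 9.45e-04 and 8.77e-04, edgeR). The remaining called gene, named after its values were seen, was Svep1, a matrix protein needed for lymphatic vessel remodelling, with -1.54. Angpt2, the context-dependent partner of Angpt1, was at 3.45 FPKM in control and 2.48 FPKM in GOF libraries (adjusted p = 0.65, edgeR), and the neuropilins Nrp1 and Nrp2, coreceptors of VEGF, had log2 fold changes of -0.24 and 0.86 without a call. Among 5 tested angiopoietin-like genes, Angptl6 was called lower (-1.34) and none higher by edgeR, while DESeq2 called 1 higher and 1 was higher at an unadjusted p under 0.05.

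Of 17 tested angiogenic ligands of other families, 6 were called lower and 1 higher, with a median log2 fold change of -0.29. Ptn, the heparin-binding cytokine pleiotrophin, had 302, 673 and 870 FPKM in control and 15.7, 11.8 and 6.73 FPKM in GOF libraries, and thus a log2 fold change of -5.76 (SE 0.52, adjusted p = 5.78e-04, edgeR). Its paralog Mdk and Hgf, hepatocyte growth factor, fell by 2.69 and 2.54 on the log2 scale. Ecm1, named after its values were seen, was the gene called higher (1.29). Of 17 tested inhibitors of angiogenesis, 3 were called lower and 2 higher. Tnmd, tenomodulin of tendons and ligaments, fell from 47.8 ± 1.17 to 6.56 ± 0.476 FPKM (SD, n = 3 each), which is a log2 fold change of -2.86 (SE 0.15, adjusted p = 9.34e-05, edgeR). Sema3f, a repelling semaphorin, had -1.96 and Adamts8, a matrix protease, 4.44, from 0.0204 to 0.489 FPKM. The others, named after their values were seen, were Dcn, also a fibroblast marker, with -1.67 and Timp3, which blocks KDR as well as matrix proteases, with 1.10. Over the 4 lists of angiogenic genes and 2 of hypoxia, 75 genes were tested, of which 6 were called higher and 12 lower, or 10 and 16 without GOF replicate 2.

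Oxygen shortage is the best known inducer of Vegfa, so genes of hypoxia were listed as well. Of 16 tested hypoxia targets none was called in either direction by edgeR or by DESeq2, with 3 higher and 3 lower at an unadjusted p under 0.05, and their median log2 fold change was -0.04. Of 9 tested genes that sense oxygen, Egln3, a prolyl hydroxylase that marks HIF for degradation and is itself induced by it, went up from 1.62 ± 0.254 to 5.17 ± 1.23 FPKM (SD, n = 3 each; log2 fold change 1.66, adjusted p = 0.00280, edgeR). None of the 9 was called lower by edgeR or by DESeq2, with 3 lower at an unadjusted p under 0.05.

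**Figure D4:**
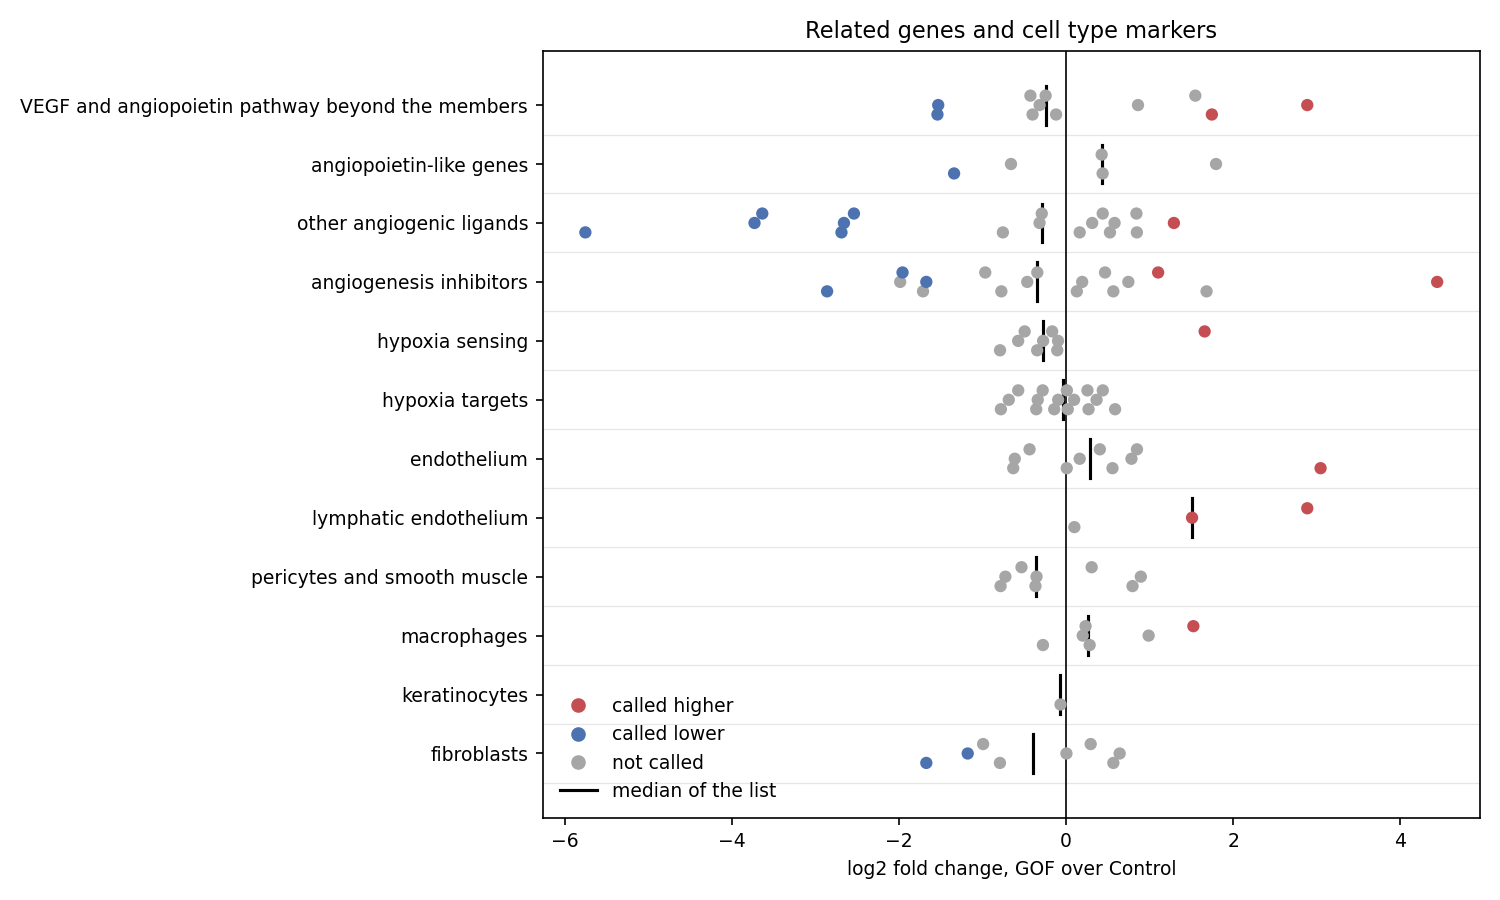
Log2 fold change, GOF over control (linear axis in log2 units), of the tested genes of each list, red where called higher, blue where called lower and grey where not called, with the median of the list as a black bar. Hypoxia targets lie around 0 without a call, and 6 of 17 other angiogenic ligands are called lower.

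Kdr, Flt1, Tek and Esm1 are best known from endothelial cells, so markers of cells other than fibroblasts were examined beside them. The summed FPKM of 15 endothelial markers was 13.9 to 19.7 in control and 14.8 to 16.1 in GOF libraries, and 11 of the 15 were under 1 FPKM in all libraries, although none was at 0 in all. Pecam1 was at 0.155, 0.0439 and 0.234 FPKM in control and at 0.403, 0.132 and 0.357 FPKM in GOF libraries (log2 fold change 0.78, adjusted p = 0.405, edgeR). Cdh5, the cadherin of endothelial junctions, was at 0.231 ± 0.0766 and 0.348 ± 0.0280 FPKM (SD, n = 3 each; 0.56, adjusted p = 0.215, edgeR), and Tie1, Cldn5, Robo4, Sox17 and Sox18 had too few fragments to be tested. The 4 markers that reached 1 FPKM in a library were Ecscr, Egfl7, Emcn and Esam, and the first 3 of them averaged 7.81, 5.36 and 1.40 FPKM in control and 5.41, 6.22 and 1.14 FPKM in GOF libraries, without a call. Of the 15 markers, only Ecscr had a higher control mean than Flt1, at 7.10 FPKM. Only Ecscr and Egfl7 had a higher control mean than Tek, at 1.94 FPKM. Such ranks of different genes do not show which cells made the RNA. Of the 10 tested endothelial markers, only Esam, a junctional adhesion molecule, was called, rising from 0.0975 to 0.916 FPKM (3.05, adjusted p = 0.00359, edgeR), and none was lower by edgeR or DESeq2 or at an unadjusted p under 0.05.

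Of 4 lymphatic markers, Flt4 (mean 0.195 to 1.48 FPKM) and Prox1 (mean 0.0641 to 0.142 FPKM) were called higher. Lyve1 was at 0.0835 and 0.0907 FPKM, and Mmrn1, too low to be tested, at 0.0131 and 0.00403 FPKM. The sum was 0.329 to 0.386 in control and 1.05 to 2.14 in GOF libraries, and Flt4 made up most of its rise. Of 8 pericyte and smooth muscle markers none was called by edgeR or DESeq2, although 1 had an unadjusted p under 0.05 and was higher, and their sum was 46.0 to 48.2 in control and 31.2 to 64.9 in GOF libraries. Of 6 macrophage markers Csf1r was called higher (1.318 to 3.888 FPKM), and Ptprc, which defines leukocytes, was at 0.0862 FPKM or less in every library. Adgre1 and Itgam had lower and Cd68, Mrc1 and Ptprc higher mean FPKM in GOF libraries, all without a call. The sum was 2.56 to 3.59 in control and 4.53 to 7.92 in GOF libraries, and Csf1r made up most of its rise. The 6 keratinocyte markers summed to at most 0.487 FPKM in any library, and the 1 tested, Krt10, was not called by edgeR or DESeq2, nor at an unadjusted p under 0.05 (count 0). The part of such cells in the levels and changes of Kdr, Flt1, Tek, Esm1 and Flt4 was not tested.

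The genes with the most similar profiles were found for each called gene among tested genes with a mean of at least 1 FPKM in a group, by the Euclidean distance between centred log2(FPKM + 1) values over the 6 libraries. For Pgf they were Trpc6 (distance 0.212), Pla2g7 (0.327) and Tceal5 (0.405), and for Kdr Nptx2 (0.161), Dennd2c (0.194) and Pard6g (0.242). For Vegfd they were Clca3a1 (0.355), Il33 (0.526) and Ctnna2 (0.540), for Flt1 Plagl1 (0.368), Plppr3 (0.430) and Fgf10 (0.432), and for Tek Cys1 (0.200) and Ccdc34 (0.220). Trpc6, a calcium channel, was at 3.20, 2.28 and 2.01 FPKM in control and 19.8, 27.1 and 12.1 FPKM in GOF libraries, so that GOF replicate 1 was highest and GOF replicate 2 lowest, as for Pgf. Esm1 changes little on this scale because of its low level, and its nearest genes, Slmap (0.0884), Gm11520 (0.0909) and Senp5 (0.0951), had log2 fold changes of only 0.53, 1.06 and 0.53.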

How the data were processed

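The authors prepared stranded TruSeq libraries, sequenced them on an Illumina HiSeq, aligned to mm10 with TopHat and quantified with Cuffdiff (versions not given in the sources used here). The estimated counts used here are the raw fragments of each gene and library, deposited unnormalized. The authors also deposited FPKM, for which Cuffdiff scaled fragments to transcript length and made libraries comparable. Whether counting used the strand is not stated. A further 2 per-library columns, the scaled fragments, were not used, nor was a separate table of lncRNAs. Columns of the samples were matched by the labels. Of 41126 genes, 97.9% were named from GENCODE M21 (GRCm38), and 32 with a failed estimate, Thbs1 among them, were left out.

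Fragments, 4.95% of them not whole, were rounded and tested with edgeR 4.0.16 in R 4.3.3 (TMM, filterByExpr, quasi-likelihood test, Benjamini-Hochberg adjustment over 15462 genes), all 6 libraries in the fit and no covariate. The FPKM of each gene was also compared by an exact permutation test (SciPy 1.17.1). Alternatives were DESeq2 1.42.0, library totals, upper-quartile and RLE scaling, no filter on low counts, FPKM of at least 1 in 3 libraries, limma 3.58.1 on log2(FPKM + 1) and log2(FPKM + 0.1), no fold threshold, a replicate block by animal or by label number, and each library left out. On simulated data for this comparison (15462 genes, 200 changed by 2 on the log2 scale), edgeR recovered 184 with 1 false call, DESeq2 182 with 2 and limma 158 with 0. The simulation gave every gene the same dispersion and drew libraries independently, without shared animals. Its rates therefore check the code and need not hold for these data. The animals pair the cultures by the labels, and deviations from group means correlated at 0.48 and 0.37 within them.

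The 10 genes, the gene lists, the motifs and the tests were chosen with earlier results of these data known. Named genes are the 10, Ctnnb1 and Axin2, up to 3 called genes of smallest adjusted p per list, and 3 nearest profiles per called gene. A gene chosen by this rule is left out of the text. The TCF/LEF core and 2 of the longer motifs, and the ligand shares and receptor ratio were added after the data were seen. The cultures came from 4 animals, so p-values measure the spread between these cultures.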

Additional observations from a re-analysis of the deposited data

How the results depend on the processing

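Pgf, Kdr and Esm1 were called higher (3 genes) with every library left out in turn, and 1 of them, Pgf, with limma on log2(FPKM + 1). The count of genes called lower, 3, ran from 0 without GOF replicate 0 to 3 with 1 library left out, and was 2 to 4 in the other alternatives. Angpt1, not called in any fit, ranged from -0.46 to 0.18 with 1 library left out (0.18, 0.04 and 0.06 where its sign reversed). Of the related genes, 6 were called higher, with 4 to 10 when 1 library was left out (10 without GOF replicate 2), 3 with limma on log2(FPKM + 1) and 10 without a fold threshold; 12 were called lower, with 10 to 16 when 1 library was left out. Of all genes 1906 were called, with 1311 to 1961 when 1 library was left out, 877 with limma on log2(FPKM + 1) and 3281 without a fold threshold. Angpt1 and Esm1 were not tested under the FPKM minimum. With a replicate block by label number, Flt1 was not called (-1.26, adjusted p = 0.101, edgeR). Same-numbered libraries share only a number: their deviations correlated at -0.42, 0.05 and -0.40. The block by animal changed no other call among the 10 genes than that of Flt1, and it leaves 1 residual degree of freedom. The control level of Esm1 rests on 3 to 6 fragments per library, and with 3 libraries a group the precision of all changes rests on few cultures.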

Other observations

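Some genes around lymphatic growth and the angiopoietin-like family lay near the threshold, and they are given here as values chosen after they were seen. Ccbe1, a secreted cofactor for the processing of VEGFC, was at 0.326, 0.5998 and 0.775 FPKM in control and at 1.99, 1.87 and 0.862 FPKM in GOF libraries, higher in 3 of 3 GOF libraries than in any control (log2 fold change 1.55, SE 0.46, adjusted p = 0.0516, edgeR). Angptl4, a secreted inhibitor of lipoprotein lipase, was at 1.96, 4.002 and 5.08 FPKM in control and at 9.002, 24.7 and 5.20 FPKM in GOF libraries (1.80, SE 0.56, adjusted p = 0.0567, edgeR). For both genes GOF replicate 2 was the lowest of the GOF libraries.

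Further ligands called lower beside Ptn, Mdk and Hgf were Cxcl12, Egfl6 and Gdf10. Cxcl12, a chemokine that draws leukocytes and progenitor cells, was at 33.4, 68.9 and 113.9 FPKM in control and 8.83, 5.89 and 2.40 FPKM in GOF libraries (log2 fold change -3.64, adjusted p = 0.00427, edgeR). Egfl6, a secreted matrix protein, was at 6.10, 10.3 and 19.3 FPKM in control and 1.58, 0.904 and 0.173 FPKM in GOF libraries (-3.73, adjusted p = 0.0120, edgeR). For both, as for Ptn, GOF replicate 2 was the lowest of the GOF libraries, where for Vegfd and Tek it was the highest. In the hypoxia lists, Pdk1 and Pfkfb4, targets that act in glucose metabolism, had adjusted p under 0.05 in opposite directions without reaching a fold of 2 (-0.78 and 0.59 on the log2 scale, adjusted p = 0.0194 and 0.0333, edgeR).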
